A study of Homo sapiens with 12 samples.

Results

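Apoptosis regulators decide whether a cell under stress or under a death signal dies. The genes described here were chosen by symbol: BCL2L1, MCL1, XIAP, CFLAR and BIRC3 on the anti-apoptotic side, and BAX, BAK1, BID, PMAIP1 and BCL2L11 on the pro-apoptotic side. A transcript cluster is the probe group that an array reports as 1 value. Clusters annotated with exactly 1 symbol were used, which covered 9 of the 10 genes, and BIRC3 was not analysed here. All 9 genes had 1 cluster each and a mean level above the filter of 4.61 on the log2 scale that left 8930 of 14884 genes for testing. That filter is the 40th percentile of the means over all arrays. It left 4 anti-apoptotic and 5 pro-apoptotic genes.

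The samples were 3 established gastric cancer cell lines, SNU601, MKN1 and AGS, each given JK139, JK136, Rhosin or the solvent DMSO. Rhosin is a small-molecule inhibitor that binds the GTPase RhoA, while JK139 and JK136 are known here by code name alone, and doses and exposure times are not in the labels. Each of the 12 combinations had 1 Affymetrix array, so every line had 4 arrays and every treatment had 3. The labels do not say whether cultures were repeated, and p-values therefore measure the spread between lines in their response to a treatment, or the spread between treatments in a difference of lines. The F test of the response by line, given below, uses another error. This is the spread between compounds within a line that remains once the effect of each compound shared by the lines is removed.

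In the mitochondrial pathway, BAX and BAK1 are the effectors that open the outer mitochondrial membrane. BCL2L1 (which codes for BCL-XL) and MCL1 hold them in check, and the BH3-only proteins BID, PMAIP1 (NOXA) and BCL2L11 (BIM) bind the survival proteins or activate the effectors. Downstream, XIAP blocks caspases, and in the death receptor pathway CFLAR (c-FLIP) blocks the activation of caspase-8. Several of these proteins are also controlled by cleavage, phosphorylation or degradation, which arrays of RNA do not measure.

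Of the 9 genes, 8 matched a promoter in the RefSeq table used here (250 bases before to 50 after a listed start, GRCh38.p14), as did BIRC3. The promoters of BAX, CFLAR and PMAIP1 are shown because these genes had the widest spread over the 12 arrays. BAX lies at chr19:48954625-48954924, CFLAR at chr2:201118466-201118765 for the most upstream of its 4 listed starts, and PMAIP1 at chr18:59899746-59900045, each on the plus strand. Capitals mark matches to any of the motifs that were searched on both strands: the GC box GGGCGG, the TATA box TATAAA, the E-box CACGTG, the cAMP response element TGACGTCA, the p53 decamer and the NF-κB site.
BAX: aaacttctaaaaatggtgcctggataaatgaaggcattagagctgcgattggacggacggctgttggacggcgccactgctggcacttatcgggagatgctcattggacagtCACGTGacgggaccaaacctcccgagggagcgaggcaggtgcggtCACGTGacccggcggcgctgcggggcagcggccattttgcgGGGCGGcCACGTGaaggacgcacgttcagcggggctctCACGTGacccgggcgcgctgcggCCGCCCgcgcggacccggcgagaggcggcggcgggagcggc
CFLAR: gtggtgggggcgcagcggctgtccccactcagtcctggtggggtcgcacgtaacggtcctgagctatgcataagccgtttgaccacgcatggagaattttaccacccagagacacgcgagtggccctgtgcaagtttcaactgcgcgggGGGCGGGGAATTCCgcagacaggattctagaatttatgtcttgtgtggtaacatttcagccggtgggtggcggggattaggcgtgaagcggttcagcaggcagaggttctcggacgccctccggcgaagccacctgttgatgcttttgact
PMAIP1: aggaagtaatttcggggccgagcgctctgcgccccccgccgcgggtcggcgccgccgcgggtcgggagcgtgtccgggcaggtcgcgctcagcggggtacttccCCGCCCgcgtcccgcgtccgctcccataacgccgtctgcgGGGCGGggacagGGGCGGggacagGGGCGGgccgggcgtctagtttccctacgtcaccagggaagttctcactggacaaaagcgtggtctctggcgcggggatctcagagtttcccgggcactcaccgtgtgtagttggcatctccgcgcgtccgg

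The BAX window held 4 E-boxes and 2 GC boxes, whereas 7.26% of 35116 promoters of the same length held an E-box and 45% a GC box. The PMAIP1 window held 4 GC boxes and no other motif of the set. E-boxes were also found in some of the BID windows. In the CFLAR window shown, 1 GC box overlapped 1 match to the NF-κB site, a motif found in 5.91% of promoters. The windows of the other CFLAR starts had no match to that site, and the BIRC3 window had 2. A TATA box, found in 11.5% of promoters, was in 1 of the 2 BCL2L1 windows, and a p53 decamer, found in 6.63%, was in the BAK1 window. The cAMP response element, found in 1.85% of promoters, had no match in the windows of these genes. These matches describe letters in a window and were not tied to binding in these cells.

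The arrays were alike in scale, with medians between 4.14 and 4.20 over 53617 clusters, and arrays of 1 line correlated more closely (Pearson's r 0.978 to 0.988) than arrays of different lines (0.927 to 0.960). Of the epithelial markers, EPCAM, KRT8, KRT18 and KRT19 lay above 4.61 in every line. Mesenchymal markers VIM, ZEB1 and FN1 lay above it in MKN1 (6.05 to 9.59) and below it in SNU601 and AGS, and EPCAM averaged 10.2 in SNU601, 6.49 in MKN1 and 10.04 in AGS. LUM, a fibroblast marker, averaged 3.21 in SNU601, 8.76 in MKN1 and 2.90 in AGS, while DCN stayed between 1.90 and 2.13. The part of these marker differences in the results on MKN1 was not tested. The typical AGS array deviated more from its line's mean, with a median absolute deviation of 0.0818 to 0.123 (log2), against 0.0627 to 0.0833 for SNU601 arrays and 0.0737 to 0.0796 for MKN1 arrays.

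**Figure D1:**
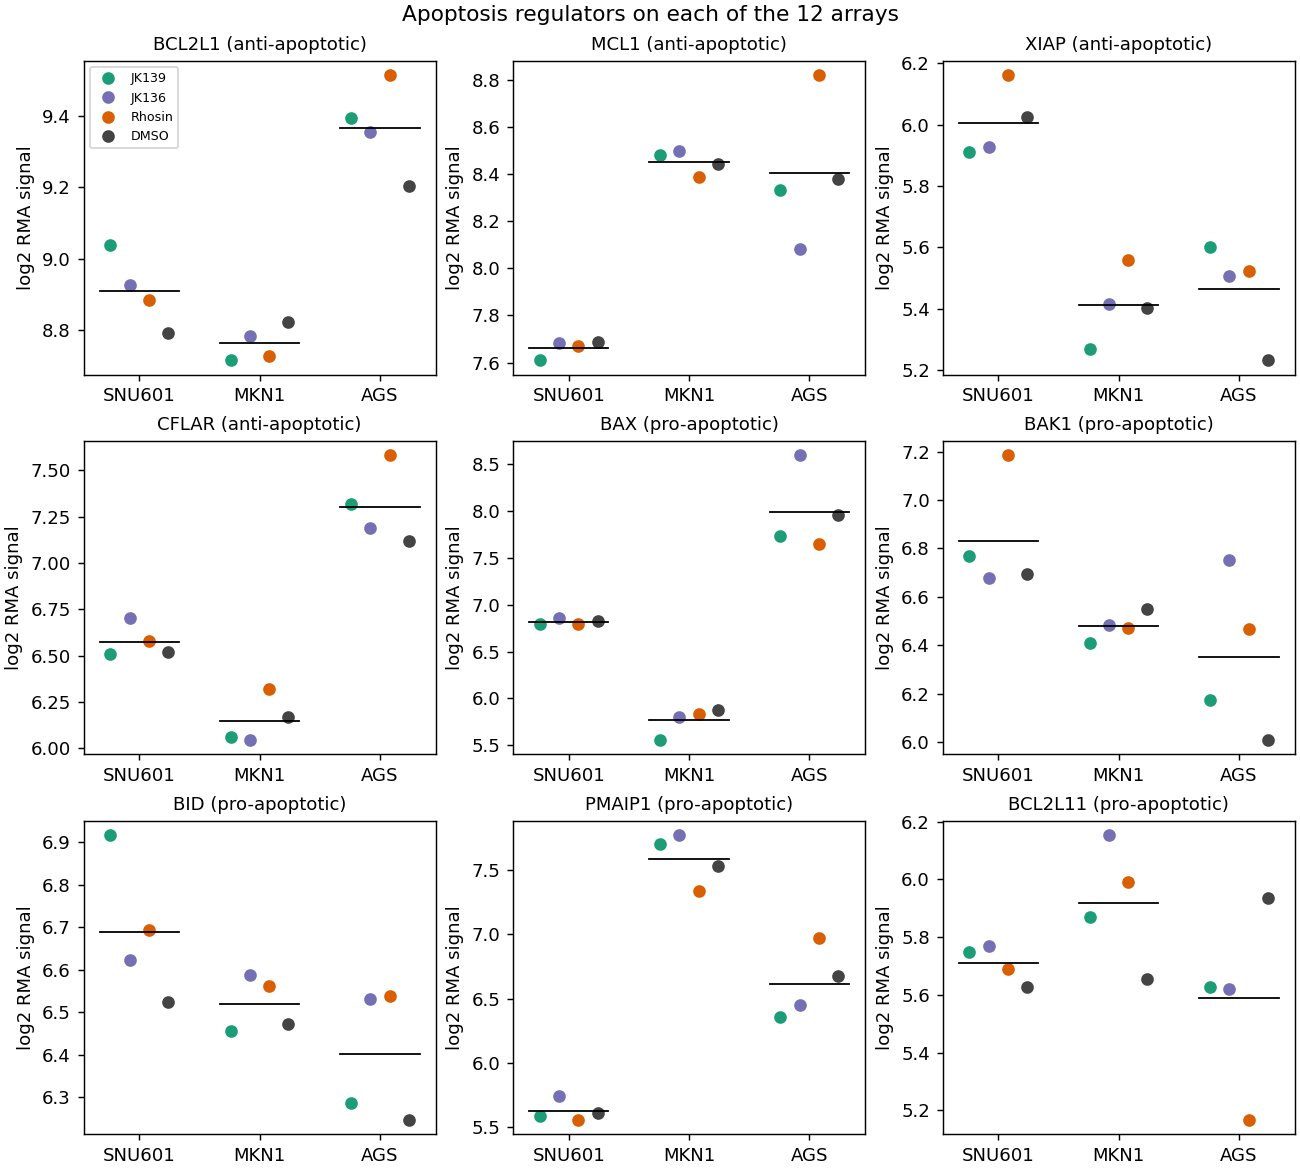
Log2 RMA signal of the 9 apoptosis regulators (y axes, each with its own range) on the 12 arrays, by cell line (x axes), with 1 point per array coloured by treatment and a bar at the mean of the 4 arrays. BAX was between 6.80 and 6.86 in SNU601, 5.56 and 5.88 in MKN1, and 7.65 and 8.60 in AGS, and PMAIP1 was lowest in SNU601 and highest in MKN1.

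The comparison of cell lines asks how far the 3 lines differ in these genes whatever the treatment. Line accounted for 33.4% of the sum of squares of BCL2L11, 49.5% for BAK1 and 50.01% for BID, and for 84.3% to 95.6% in the other genes, beside a median of 82% over all genes tested. MKN1 had less CFLAR, BCL2L1 and BAX RNA than AGS and more PMAIP1. SNU601 had less BCL2L1, MCL1, CFLAR, BAX and PMAIP1 than AGS and more XIAP, BAK1 and BID. A lower level in such bulk samples can come from fewer cells that express a gene or from less RNA in each, which cannot be told apart.

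With limma, 8 of 9 genes were called between SNU601 and AGS at an adjusted p under 0.05 (3 higher and 5 lower in SNU601), against 52.7% of all genes tested (29.9% higher and 22.8% lower). Between MKN1 and AGS the count was 4 of 9 (1 higher and 3 lower in MKN1), against 66.3% of all genes (35.3% higher and 31% lower). Between SNU601 and MKN1 it was 6 of 9 (4 higher and 2 lower in SNU601), against 63.4% of all genes (32.3% higher and 31.1% lower). At an unadjusted p under 0.05 the counts were 8, 5 and 6 of 9, against 57.4%, 69.4% and 66.5% of all genes. The 4 arrays of each line did not overlap for 6, 4 and 6 genes in the same comparisons, against 47.3%, 59.1% and 62.1% of all genes. On the anti-apoptotic side the median log2 difference was −0.59 for SNU601 against AGS, −0.33 for MKN1 against AGS and 0.29 for SNU601 against MKN1, and on the pro-apoptotic side it was 0.12, 0.13 and 0.17. The medians over all genes were 0.051, 0.021 and 0.023.

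**Figure D2:**
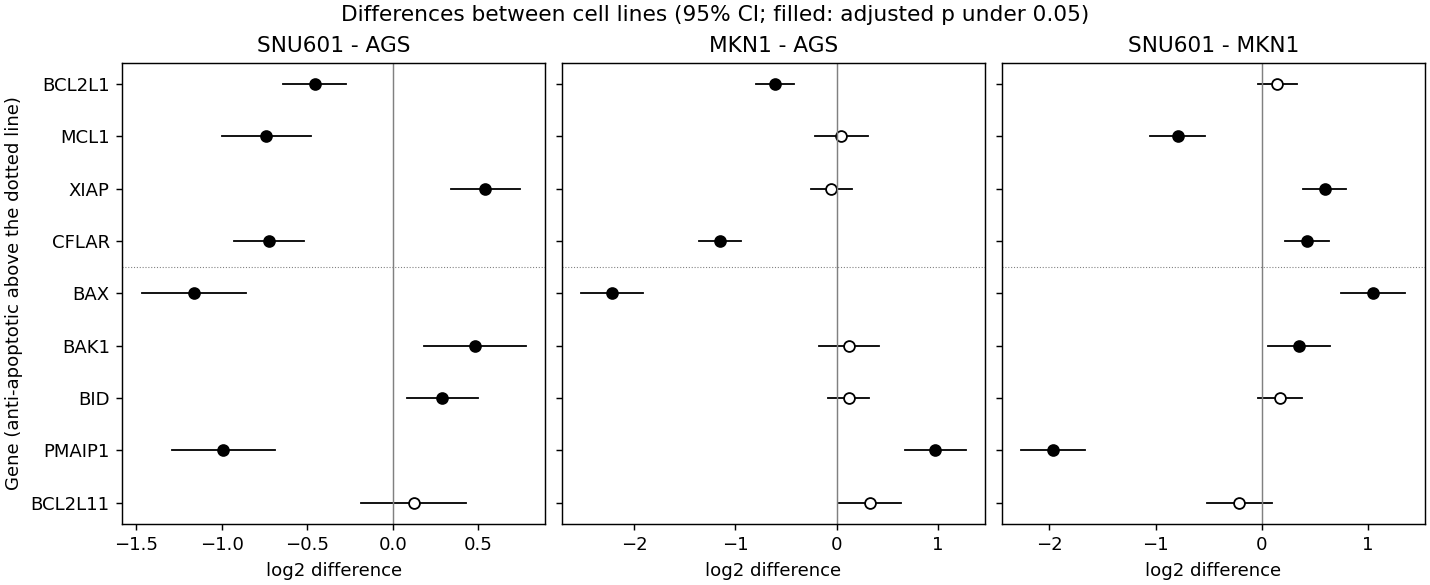
Log2 differences between cell lines (x axes) for each gene (y axis), with the mean difference over 4 treatments as a point and its 95% confidence interval from limma as a line. Filled points had an adjusted p under 0.05, and the widest differences were those of BAX (MKN1 minus AGS, −2.22) and PMAIP1 (SNU601 minus MKN1, −1.97).

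Among the anti-apoptotic genes, BCL2L1 gave 9.04, 8.93, 8.88 and 8.79 (log2 signal) in SNU601 with JK139, JK136, Rhosin and DMSO, 8.72, 8.78, 8.73 and 8.82 in MKN1, and 9.40, 9.36, 9.51 and 9.20 in AGS. All 4 AGS arrays lay above the arrays of the other lines, while SNU601 and MKN1 overlapped. The difference was −0.46 ± 0.085 for SNU601 against AGS (SE, adjusted p 0.000694) and −0.61 ± 0.085 for MKN1 against AGS (adjusted p 4.95e-05), which is 1.37-fold and 1.52-fold lower. SNU601 and MKN1 differed by 0.15, with a 95% confidence interval of −0.038 to 0.33.

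MCL1, a short-lived survival protein that binds BAK1 and BH3-only proteins, gave 7.61, 7.68, 7.67 and 7.69 in SNU601 in the same order of treatments, 8.48, 8.50, 8.39 and 8.44 in MKN1, and 8.33, 8.08, 8.82 and 8.38 in AGS. SNU601 lay below the other lines on every array, and the AGS arrays spanned the range of MKN1 and beyond. MCL1 was lower in SNU601 than in AGS by 1.67-fold (−0.74 ± 0.12, adjusted p 0.000234) and lower than in MKN1 by 1.73-fold (−0.79 ± 0.12, adjusted p 9.33e-05). The difference of MKN1 and AGS was 0.048 (95% confidence interval −0.21 to 0.31).

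XIAP gave 5.91, 5.93, 6.16 and 6.03 in SNU601, 5.27, 5.42, 5.56 and 5.40 in MKN1, and 5.60, 5.51, 5.52 and 5.23 in AGS. Its arrays from SNU601 lay above those of both other lines, which overlapped each other. XIAP was therefore the member of the anti-apoptotic side that was higher in SNU601 than in AGS (0.54 ± 0.092, adjusted p 0.000378), and it was also higher than in MKN1 (0.59 ± 0.092, adjusted p 0.000122).

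CFLAR, which competes with caspase-8 for the adaptor of death receptors, gave 6.51, 6.70, 6.58 and 6.52 in SNU601, 6.06, 6.05, 6.32 and 6.17 in MKN1, and 7.32, 7.19, 7.58 and 7.12 in AGS. The 3 lines did not overlap, with AGS highest and MKN1 lowest. CFLAR was 2.22-fold lower in MKN1 than in AGS (−1.15 ± 0.094, adjusted p 4.71e-07), 1.65-fold lower in SNU601 than in AGS (−0.73 ± 0.094, adjusted p 4.66e-05) and 1.35-fold higher in SNU601 than in MKN1 (adjusted p 0.00164).

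Among the pro-apoptotic genes, BAX gave 6.80, 6.86, 6.80 and 6.83 in SNU601, 5.56, 5.81, 5.83 and 5.88 in MKN1, and 7.73, 8.60, 7.65 and 7.96 in AGS. The lines did not overlap and kept the order of CFLAR. BAX was 4.65-fold lower in MKN1 than in AGS (−2.22 ± 0.14, adjusted p 4.62e-08), 2.24-fold lower in SNU601 than in AGS (−1.16 ± 0.14, adjusted p 2.4e-05) and 2.07-fold higher in SNU601 than in MKN1 (adjusted p 3.19e-05). Within a treatment, MKN1 minus AGS ran from −2.79 with JK136 to −1.82 with Rhosin, and the SD over the 4 arrays was 0.028 in SNU601, 0.14 in MKN1 and 0.43 in AGS.

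PMAIP1, whose protein NOXA binds MCL1, gave 5.58, 5.74, 5.56 and 5.61 in SNU601, 7.70, 7.78, 7.34 and 7.53 in MKN1, and 6.36, 6.45, 6.97 and 6.67 in AGS. Here too the lines did not overlap, but MKN1 was highest and SNU601 lowest. PMAIP1 was 3.91-fold lower in SNU601 than in MKN1 (−1.97 ± 0.14, adjusted p 1.28e-07), 1.99-fold lower in SNU601 than in AGS (−0.99 ± 0.14, adjusted p 7.85e-05) and 1.96-fold higher in MKN1 than in AGS (0.97 ± 0.14, adjusted p 5.24e-05).

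BAK1 gave 6.77, 6.68, 7.19 and 6.69 in SNU601, 6.41, 6.49, 6.47 and 6.55 in MKN1, and 6.17, 6.75, 6.47 and 6.01 in AGS. The AGS arrays overlapped both other lines, and SNU601 lay above MKN1 on every array. BAK1 was higher in SNU601 than in AGS by 1.40-fold (0.48 ± 0.14, adjusted p 0.0102) and than in MKN1 by 1.28-fold (0.35 ± 0.14, adjusted p 0.0382). The call against MKN1 was lost in 8 of 16 fits that left out an array or a treatment, with a difference of 0.23 and an adjusted p of 0.205 without the Rhosin arrays, and the call against AGS without the JK139 arrays (adjusted p 0.0601).

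BID, which caspase-8 cleaves to link death receptors to mitochondria, gave 6.92, 6.62, 6.69 and 6.53 in SNU601, 6.46, 6.59, 6.56 and 6.47 in MKN1, and 6.29, 6.53, 6.54 and 6.25 in AGS. The arrays of the 3 lines overlapped. BID was higher in SNU601 than in AGS by 1.22-fold (0.29 ± 0.095, adjusted p 0.0223), and this call was lost in 5 of 16 such fits. Without the JK139 arrays the difference was 0.17 (adjusted p 0.161), and without the SNU601 JK139 array it was 0.18 (adjusted p 0.108).

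BCL2L11, the gene of the BH3-only protein BIM, gave 5.75, 5.77, 5.69 and 5.63 in SNU601, 5.87, 6.15, 5.99 and 5.65 in MKN1, and 5.63, 5.62, 5.17 and 5.93 in AGS. The lines overlapped and no comparison of lines was called. MKN1 differed from AGS by 0.33 (95% confidence interval 0.021 to 0.64, adjusted p 0.057). That difference was −0.28 with DMSO and between 0.24 and 0.82 with the compounds, and leaving out arrays moved it both ways. It was 0.53 without the DMSO arrays (adjusted p 0.00373), 0.50 without the AGS DMSO array (adjusted p 0.0029), 0.18 when the AGS array with Rhosin was dropped (adjusted p 0.234) and 0.17 when all Rhosin arrays were (adjusted p 0.312).

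The comparison of each compound with DMSO asks whether the compounds moved these genes. No member passed the threshold with JK139, JK136 or Rhosin. Limma called 0 of 9 members in each comparison, with 0 at an unadjusted p under 0.05, and it called 0% of the 8930 genes (2.44%, 5.25% and 6.27% of which had an unadjusted p under 0.05). The median log2 difference of the 9 genes was 0.028 with JK139, 0.082 with JK136 and 0.12 with Rhosin, beside −0.011, −0.019 and −0.015 over all genes. A positive difference was found for 6, 8 and 7 of the 9, against 45.4%, 44% and 45% of all genes. Anti-apoptotic genes had medians of 0.034, 0.053 and 0.16, and pro-apoptotic genes had 0.0089, 0.17 and 0.018. The 95% confidence interval of a member's difference reached 0.21 to 0.36 to either side, before any adjustment over genes.

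With Rhosin the 4 anti-apoptotic genes had positive differences. CFLAR differed by 0.23 (95% confidence interval −0.012 to 0.46, adjusted p 0.796), with 0.059 in SNU601, 0.15 in MKN1 and 0.46 in AGS. XIAP differed by 0.19 (adjusted p 0.817), with 0.13, 0.16 and 0.29 in those lines. BCL2L1 differed by 0.10, with 0.091 in SNU601, −0.096 in MKN1 and 0.31 in AGS. MCL1 differed by 0.12, with −0.021, −0.057 and 0.44 in those lines, and by −0.077 without the AGS array with Rhosin. The AGS difference was the highest of the 3 for each of these genes.

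Of the pro-apoptotic genes, BAK1 differed by 0.29 with Rhosin (adjusted p 0.814), with 0.49 in SNU601, −0.078 in MKN1 and 0.46 in AGS, and BID by 0.18, with a positive value in each line. BAX differed by −0.13, with −0.034 in SNU601, −0.046 in MKN1 and −0.31 in AGS. PMAIP1 differed by 0.018, with −0.054, −0.19 and 0.30 in those lines, and by −0.21 without the AGS array with Rhosin or 0.19 without the MKN1 array with Rhosin. BCL2L11 differed by −0.12, with 0.062 in SNU601, 0.34 in MKN1 and −0.77 in AGS, and by 0.075 without the AGS array with Rhosin. Positive differences in all 3 lines were found for 3 of 9 members (XIAP, CFLAR and BID), against 12% of all genes, and negative ones for 1 of 9 (BAX), against 14.3%.

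With JK136, BAX differed by 0.20 (95% confidence interval −0.15 to 0.55, adjusted p 0.936), with 0.026 in SNU601, −0.070 in MKN1 and 0.64 in AGS. BAK1 differed by 0.22 (adjusted p 0.936), with −0.017, −0.064 and 0.74 in those lines. Without the AGS array with JK136 the differences were −0.057 for BAX and 0.0091 for BAK1. On both genes the AGS array with JK136 was the highest of that line, and the other lines stayed close to their DMSO array. BID had 0.17, with 0.098, 0.12 and 0.29 in SNU601, MKN1 and AGS, and was the 1 member positive in all 3 lines (10.6% of all genes were), while 0 members were negative in all 3 (15.9% of genes). The other 6 genes had differences between −0.083 (MCL1) and 0.11 (BCL2L11).

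With JK139 the differences ran from −0.19 for BAX (adjusted p 0.9999) to 0.14 for BID. BAX was negative in all 3 lines, with −0.031 in SNU601, −0.32 in MKN1 and −0.23 in AGS, and 13.6% of all genes were so. No member was positive in all 3 lines, against 10.1% of all genes. BID had 0.39 in SNU601, −0.015 in MKN1 and 0.039 in AGS. The 3 comparisons share the DMSO arrays and are not independent of each other.

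**Figure D3:**
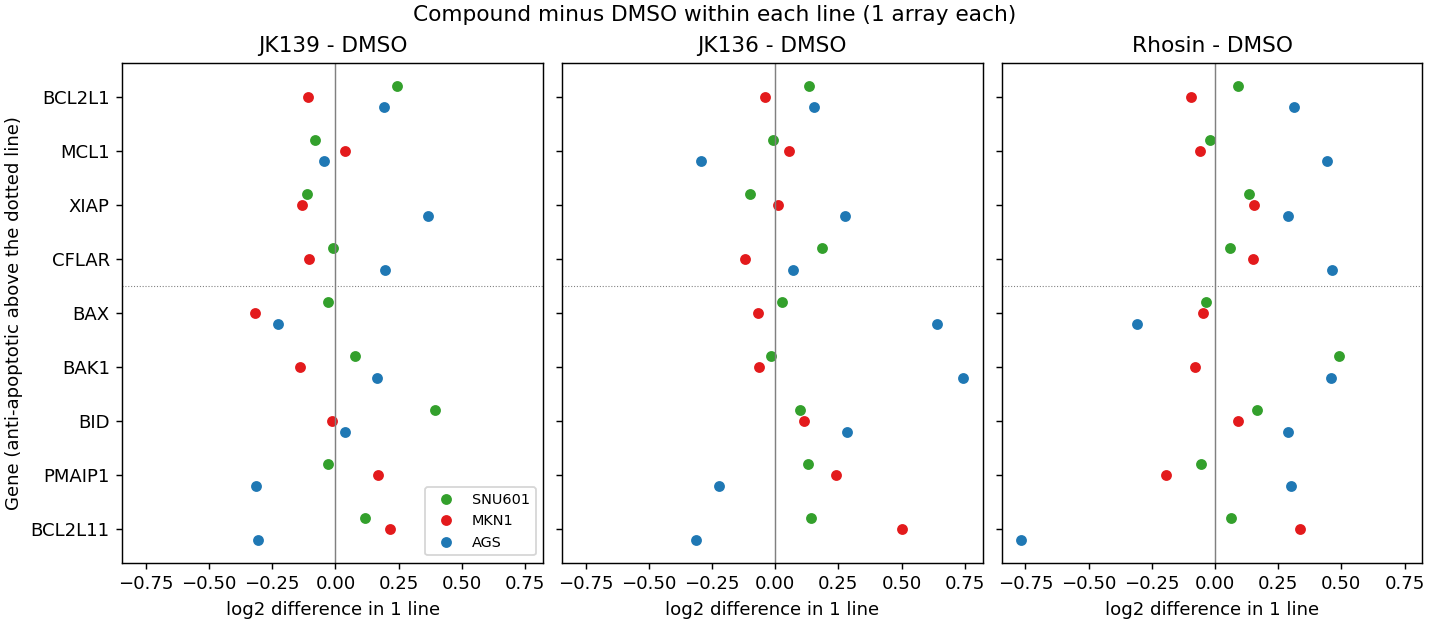
Log2 difference of each compound from DMSO within each line (x axes), for each gene (y axis), with 1 point per line and no error, since each point rests on 1 pair of arrays. AGS points lie farthest from 0 in most rows, such as BCL2L11 with Rhosin (−0.77) and BAK1 with JK136 (0.74).

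The arrays of AGS spread more widely over the treatments than those of the other lines. The SD over the 4 arrays was highest in AGS for 8 of 9 members, BID being the exception, and for 52.9% of all genes. In AGS, BCL2L11 was below its DMSO array with each compound, whereas in SNU601 and MKN1 it was above. The mean of the 3 compounds minus DMSO was 0.11 in SNU601, 0.35 in MKN1 and −0.46 in AGS. Limma's F test of whether the mean response differs between lines gave an adjusted p of 0.9998 for BCL2L11 (unadjusted p 0.0212), and 0% of all genes were called (3.07% had an unadjusted p under 0.05). That test pools the 3 compounds. Its error is the spread between them within a line that remains once the effect of each compound shared by the lines is removed. The compounds thus stand in for replicates, and each line has 1 DMSO array.

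A further 3 comparisons set compound against compound within the same lines. Whether doses or times matched is not stated, so these are differences between the arrays as deposited. Limma called 0 of 9 members in each pair and 0% of all genes, and 5.53%, 9.09% and 7.42% of all genes had an unadjusted p under 0.05 for JK139 against JK136, JK136 against Rhosin and JK139 against Rhosin. BAX was the member below that limit, for JK139 against JK136, with −0.39 ± 0.16 (unadjusted p 0.032, adjusted over the 3 pairs 0.0959, adjusted over all genes 0.883). Its value was −0.057 in SNU601, −0.25 in MKN1 and −0.87 in AGS, and −0.14 overall when the AGS array with JK136 was left out. Between JK136 and Rhosin, BAX differed by 0.33 (95% confidence interval −0.023 to 0.68), with 0.060 in SNU601, −0.024 in MKN1 and 0.95 in AGS, and by 0.072 without the AGS array with JK136.

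On the anti-apoptotic side, 4 of 4 differences between JK136 and Rhosin were negative (median −0.16), as were 3 of 4 between JK139 and Rhosin (median −0.15), and 0 of these passed the threshold. Both comparisons subtract the same 3 Rhosin arrays and are not independent. Without the AGS array with Rhosin, the MCL1 difference was −0.0061 for JK136 and 0.048 for JK139. Over both sides, 2 of 9 differences were positive for JK139 against JK136, 3 of 9 for JK136 against Rhosin and 2 of 9 for JK139 against Rhosin, while 51.8%, 48.4% and 50.5% of all genes had a positive one. MCL1 had −0.20 for JK136 against Rhosin, from 0.014 in SNU601, 0.11 in MKN1 and −0.74 in AGS. CFLAR had −0.20 for JK139 against Rhosin (95% confidence interval −0.43 to 0.041), with −0.068, −0.26 and −0.27 in those lines, and was negative in all 3 lines together with BAK1 (14.4% of all genes were), while 0 members were positive in all 3 (14.9%). For JK136 against Rhosin, BCL2L11 was positive in all 3 lines (13.2% of all genes) and XIAP negative (14.6%). For JK139 against JK136, BAX and PMAIP1 were negative in all 3 lines (13.1% of all genes), and 0 members were positive (15.3%). The intervals of the other members reached as far as 0.60 from 0, so these values do not show that the compounds act alike.

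Beyond the 9 members, 34 more genes of the pathway were listed by role. A cluster with exactly 1 symbol was available for 16 of them, and 14 passed the filter. BCL2 and BCL2A1, survival genes of the BCL2 family, had means of 3.29 and 2.44 and were left out by it, and 18 listed genes, among them the caspases, were not analysed here. Limma called 3 of these 14 genes higher and 4 lower in SNU601 than in AGS, 5 higher and 6 lower in MKN1 than in AGS, and 4 higher and 5 lower in SNU601 than in MKN1. The shares of all genes called higher and lower were 29.9% and 22.8%, 35.3% and 31%, and 32.3% and 31.1% in the same order.

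BBC3, the gene of the BH3-only protein PUMA, had levels of 5.31 ± 0.24 in SNU601, 4.86 ± 0.22 in MKN1 and 6.48 ± 0.42 in AGS (SD, n = 4). It was 3.09-fold lower in MKN1 than in AGS (−1.63 ± 0.20, adjusted p 1.44e-05) and 2.25-fold lower in SNU601 than in AGS (−1.17 ± 0.20, adjusted p 0.00034). BMF, another BH3-only gene, was lower than in AGS by 0.59 in SNU601 and by 0.43 in MKN1. BAD, whose protein binds BCL-XL, was higher than in AGS by 0.63 in SNU601 and 0.92 in MKN1 (adjusted p 0.000481 and 1.46e-05). BIK was 0.59 higher in SNU601 than in MKN1 (adjusted p 0.0148).

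Of the pro-apoptotic genes with other roles, APAF1, the scaffold of the apoptosome, was 2.07-fold higher in SNU601 than in MKN1 (1.05 ± 0.13, adjusted p 2.03e-05) and 0.73 lower in MKN1 than in AGS. HTRA2, a mitochondrial protease that antagonises IAP proteins, was 2.45-fold lower in SNU601 than in MKN1 (−1.30 ± 0.095, adjusted p 1.97e-07), 0.43 lower in SNU601 than in AGS and 0.87 higher in MKN1 than in AGS. XAF1, an antagonist of XIAP induced by interferon, was higher in SNU601 than in AGS by 0.91 and than in MKN1 by 0.71. BOK, related to BAX, was higher in MKN1 than in AGS by 0.55 and lower in SNU601 than in MKN1 by 0.75. The adaptors FADD and TRADD differed between SNU601 and MKN1 by −0.41 and 0.45.

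Among the inhibitors of apoptosis proteins, BIRC5 (survivin, which also acts in mitosis) was higher than in AGS by 0.61 in SNU601 and 0.74 in MKN1, BIRC2 (cIAP1) was 0.51 lower in SNU601 than in AGS and 0.29 lower than in MKN1, and BIRC7 was 0.31 lower in MKN1 than in AGS. With the compounds, limma called 0 of the 14 genes in each comparison with DMSO and 0% of all genes. The highest were XAF1 (0.30) and BAD (0.12) with JK139, XAF1 (0.52, unadjusted p 0.0047, adjusted p 0.902) and APAF1 (0.095) with JK136, and APAF1 (0.10) and XAF1 (0.091) with Rhosin. At the low end were BBC3 (−0.17) and TRADD (−0.15) with JK139, BMF (−0.13) and TRADD (−0.096) with JK136, and BIRC7 (−0.16) and BIK (−0.13) with Rhosin. Between the compounds, XAF1 was the highest for JK136 against Rhosin (0.43, unadjusted p 0.0145, adjusted over the 3 pairs 0.0435, adjusted over all genes 0.454), with BIRC7 at 0.16, TRADD at −0.12 and BMF at −0.14. For JK139 against Rhosin BIRC7 had 0.25, XAF1 0.21, BMF −0.11 and TRADD −0.18, and for JK139 against JK136 BOK had 0.15, BIRC7 0.097, BBC3 −0.12 and XAF1 −0.22.

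**Figure D4:**
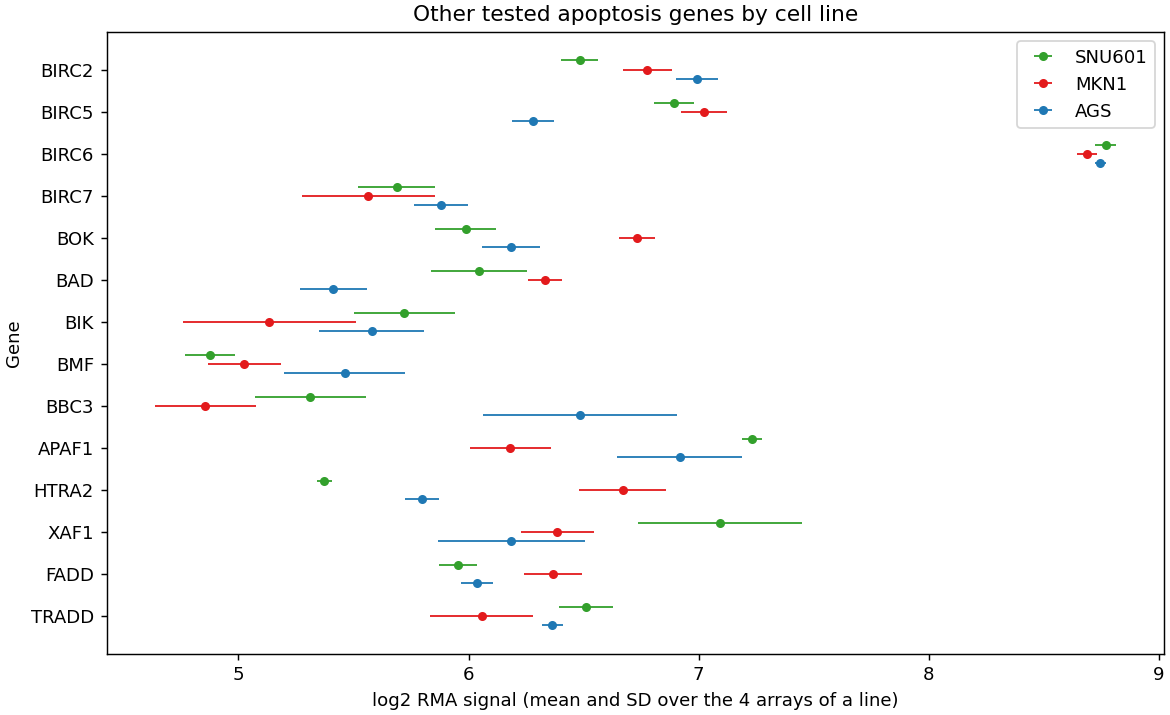
Log2 RMA signal (x axis) of the 14 other tested apoptosis genes (y axis), with the mean over the 4 arrays of each line as a point and the SD as a bar. BBC3 and BMF were highest in AGS, HTRA2 and BOK in MKN1, and XAF1 and APAF1 in SNU601.

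Members also shared patterns over the arrays, given here as descriptions over 12 arrays that fall into 3 groups by line. Among the 36 pairs of members, BCL2L1 with CFLAR (r = 0.95) and CFLAR with BAX (r = 0.91) were the most alike in level. After each line's mean was subtracted, the highest r of the 36 pairs was 0.77 for MCL1 and PMAIP1 (0.84 over the 8 arrays without AGS). BCL2L1 and BID followed with r = 0.72 (0.78 without AGS). MCL1 varied little on those 8 arrays, with an SD of 0.036 in SNU601 and 0.049 in MKN1. The lowest r of the 36 pairs on these values was −0.77 for MCL1 and BAX, and it was −0.28 without AGS.

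The tested genes whose levels most resembled those of BAX over the 12 arrays were SUCO, RRBP1 and IFIH1 (r = 0.98 each). For PMAIP1 they were NRP1, TMEM192 and NCS1 (r = 0.98 each), and for CFLAR they were SAV1 (0.98), HOXB6 (0.97) and ZNF518A (0.97). On values with the line's mean subtracted, BAX was most like SCRIB (0.96), PRKD2 (0.94) and RSAD2 (0.94), and there the AGS array with JK136 lies apart for BAX. BAK1 was most like HEPH (0.95), LETM1 (0.94) and MYD88 (0.92), and BCL2L11 most like MRPL50 (0.93), NAP1L4 (0.92) and CENPQ (0.90). These genes top a ranking of all tested genes for each member, and the arrays share their line and treatment.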

How the data were processed

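RNA of 12 samples was measured on Affymetrix GeneChip Human 2.0 ST arrays. The deposited values are log2 signals, made by the authors with RMA (background correction, quantile normalization and a summary per transcript cluster) in Affymetrix Expression Console, per the submitters' processing notes. Software versions and the annotation release are not given in the sources used here. Exactly 1 symbol was given for 16098 of 53617 clusters. Clusters with no symbol or with several symbols were not used. Of several clusters with 1 symbol the one of highest mean level was kept, and genes below the 40th percentile of means were left out.

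A linear model with terms for treatment and line was fitted to the log2 values of the 12 arrays in limma 3.58.1 (R 4.3.3), leaving 6 residual degrees of freedom, with Benjamini-Hochberg adjustment over 8930 genes. The same line under each treatment is the pairing, taken from the labels, so line is the block for treatments, and treatment the block for lines. The response by line was tested with an F test on 2 interaction terms (4 residual degrees of freedom). The model was tested on simulated data. The number of arrays limits the precision.

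Members, gene lists and tests were chosen with earlier results of these data known. The naming rule took all members, up to 4 called genes of the list in each direction between lines, the 2 highest and 2 lowest between treatments, and the 3 genes most like each of the 3 members of widest spread, on levels and on line-centred values. Alternatives changed the scaling, the filter, the set of clusters tested, the spread, the block and the arrays in the fit.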

Additional observations from a re-analysis of the deposited data

Results flagged for a closer look

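For 3 of 9 members, all 3 compounds lay on one side of DMSO in 1 line and on the other side in another line, a pattern shown by 25.6% of all genes tested. Each line's 3 differences use 1 DMSO array, so they are not independent. For BCL2L11 the mean of the compounds minus DMSO was 0.11 in SNU601, 0.35 in MKN1 and −0.46 in AGS. BAK1 had −0.094 in MKN1 and 0.46 in AGS, and its signs were mixed in SNU601. For BCL2L1 the values were 0.16 in SNU601, −0.081 in MKN1 and 0.22 in AGS. Limma's F test of a difference between lines gave an adjusted p of 0.9998 for each, from an unadjusted p of 0.0212 for BCL2L11, 0.237 for BAK1 and 0.309 for BCL2L1. What lies behind these patterns was not tested.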

How the results depend on the processing

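The counts of members called stayed within 1.5 times of the values reported under every alternative run. They were 0 for the 6 treatment comparisons and for the response by line. Leaving out an array, a line or a treatment gave 4 to 5 members for MKN1 against AGS, 6 to 8 for SNU601 against AGS and 5 to 6 for SNU601 against MKN1. Without the treatment block the 3 counts were 5, 8 and 6. With all 53617 clusters tested on their own and no filter, the counts were 4, 6 and 5. Each member has 1 cluster, so that setting left the members' differences unchanged and does not test the choice of cluster. Of the 18 calls between lines, 3 were lost under at least 1 alternative: BAK1 in 2 comparisons and BID in 1. In the other direction, BCL2L11 between MKN1 and AGS gained a call with quantile normalization (0.36, adjusted p 0.036) and the 60th percentile filter (adjusted p 0.0432). It did so too with a trended and robust spread (adjusted p 0.0483) and without the treatment block (adjusted p 0.0456). Dropping the AGS DMSO array, the MKN1 DMSO array or all DMSO arrays also gave a call (0.46 to 0.53). BAK1 between MKN1 and AGS gained one without the AGS JK136 array (0.29, adjusted p 0.0438). No called difference turned its sign. Of the members' differences, 18 of 27 between a compound and DMSO, 18 of 27 between compounds and 4 of 27 between lines changed sign under at least 1 alternative, and 0 of those between treatments were called under any. Quantile normalization moved the BID difference of SNU601 and AGS to 0.25 (adjusted p 0.0517) and the BAK1 difference of SNU601 and MKN1 to 0.31 (adjusted p 0.0777). The scaling alternatives shifted the median of all genes by less than 0.1 in each comparison. With 1 array per line and treatment, a single compound's response in a single line has no test.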
